A study of Rattus norvegicus with 24 samples.

Results

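The 10 genes described here mark astrocytes, the glial cells that surround synapses and vessels in the cortex, and were followed in RNA-Seq tables of rat frontal cortex. The genes were Gfap, Vim, Slc1a3, Slc1a2, Glul, Aqp4, Gja1, Aldh1l1, Aldoc and S100b, chosen by name for their known expression in astrocytes, and all 10 were found among the 32883 reference genes of the tables, with 1 row each and no overlap with another reference gene. The samples came from 24 adult male Sprague-Dawley rats of a study of inhaled tungsten particles, and tissue was taken 24 h after exposure. Low and High rats had inhaled the tungsten aerosol, and Control rats had not. The Control group received 0 mg/m3, the Low group 5 mg/m3 and the High group 80 mg/m3, with 8 rats in each group. Replicates are named by their library number, 49 to 56 for Control, 57 to 64 for Low and 65 to 72 for High. The RNA was taken from a piece of whole tissue, so fewer astrocytes and less RNA per astrocyte cannot be told apart in any value below.

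Astrocytes clear glutamate from the synapse through the transporters GLAST and GLT-1, turn it into glutamine with glutamine synthetase, and pass ions and metabolites to their neighbours through gap junctions. Their end-feet on blood vessels carry the water channel aquaporin-4. After injury or inflammation astrocytes become reactive, and a rise of the intermediate filament protein GFAP is the usual sign of that state.

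The unit throughout is scaled coverage, which is the mean read depth per base of a gene divided by the sum of that depth over all reference genes of the rat and multiplied by 1000000. As a depth per base it does not grow with the length of a gene. Levels of different genes can be compared only as far as each row holds the reads of its gene. The row of Slc1a2 covered only a stretch of its locus, and that of Aldh1l1 had a lower depth than a locus assembled there. The row of Glul spans 9178 bases, while RefSeq gives that gene 66055 on another build. In the 16 Control and High tables its assembled locus had 0.87 to 1 times the coverage of its row. Whether the row holds all reads of Glul was not tested. The summed depth before scaling ranged, in units of 1000000, from 1.64 to 3.07 over the 24 rats. Neuron, astrocyte and oligodendrocyte markers were all present. In Control rats the 13 neuron markers summed to 2940 to 4287 and the 10 astrocyte genes to 3701 to 5496, while the 5 meninges markers summed to 72.9 to 177.2 and the 9 striatum markers to 476.5 to 1110.8. Some libraries stood apart from the others. Control 49 and Low 57 had median Spearman correlations of 0.953 and 0.963 with the other rats of their group, Control 56 had 0.955, and Low 63 and 64 had 0.956 with theirs, against 0.968 to 0.989 for the remaining 19 rats. Libraries 57 to 62 also correlated less with all other rats (medians 0.925 to 0.940) than the remaining 18 (0.953 to 0.980), and Control 56 differed from the other Control tables in the strand of its assembled loci. Libraries 56 to 62 hold 1 Control and 6 Low rats, so no comparison could be made within them. No label groups these libraries. With them left out, Low holds rats 63 and 64 alone. With them as a covariate, the Low comparisons rest mainly on those rats and on Control 56. In both settings 0 of the 10 genes passed the threshold in any comparison, as in the whole set below. With so few Low rats this says little about Low. Results that rest on Control 49 or Low 57 are given with and without them.

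The 10 genes covered a wide range of levels in Control rats. Glul, which encodes glutamine synthetase, and S100b, a calcium-binding protein, were the highest, with medians of 1273 and 1253. Aldoc, the brain form of the glycolytic enzyme aldolase, followed at 561.3. The glutamate transporter genes Slc1a2 (GLT-1) and Slc1a3 (GLAST) had medians of 432.8 and 345.7, the gap junction gene Gja1 252.7, Gfap 215.3, Aqp4 151.7 and Vim 89.7. Aldh1l1, a folate enzyme used as a general astrocyte marker, was far lower at 7.80. Neighbours in this order were compared within rats by an exact sign-flip permutation test, two-sided, over 8 rats and 9 pairs. Glul and S100b did not differ beyond their spread (adjusted p = 1, higher in 5 of 8 rats), and neither did Slc1a2 and Slc1a3 (adjusted p = 1, higher in 7 of 8 rats, the exception being rat 49). Gja1 and Gfap differed in 7 of 8 rats (adjusted p = 0.0301), and the other 6 neighbours in 8 of 8 rats (adjusted p = 0.0117 each, from the smallest p that 8 rats allow, 0.0078). The places of Slc1a2 and Aldh1l1 in this order are those of their rows alone. Assembled loci that join the row of Slc1a2 with further reads had 642.4, 715.5 and 650.4 in Control 51, 52 and 55, where Aldoc had 553.3, 550.3 and 563.4. Whether the row for Aldh1l1 holds all reads at its locus was not tested. In the 16 Control and High tables, an assembled locus on the same strand had 1.59 to 2.6 times the coverage of its row.

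**Figure D1:**
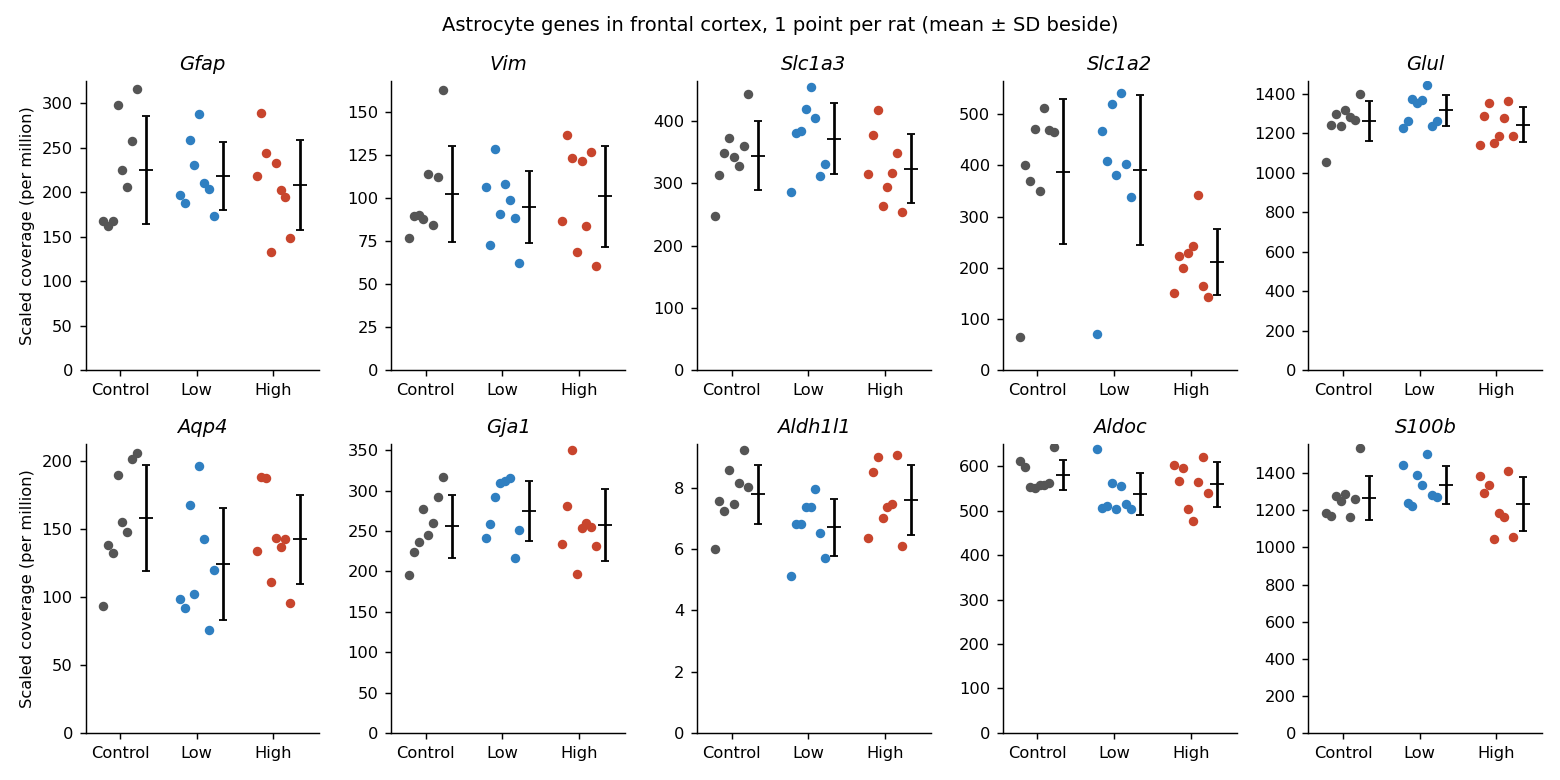
Scaled coverage of each astrocyte gene in each rat, by group, with the mean and SD of 8 rats beside the points; points stand in order of library number, which is no time or dose, and every axis starts at 0. Slc1a2 in Control 49 (65.0) and Low 57 (70.2) lies far below the other rats of those groups, while the groups overlap in all 10 genes.

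None of the 10 genes passed the threshold in any comparison. The test was limma on log2(scaled coverage + 1) over 15644 genes with a mean of at least 1, two-sided, and a gene passed at a p under 0.05 after Benjamini-Hochberg adjustment. In Low against Control 0 of 10 passed, beside 956 of all genes tested (6.11%). In High against Control 0 of 10 passed, and the count over all genes was 0 as well (0%), with 330 genes at an unadjusted p under 0.05. In Low against High 0 of 10 passed, beside 1828 of all genes (11.7%). The tables of Low list 0 loci assembled from the reads, those of Control 46334 to 159573 and those of High 50235 to 64010. A difference of Low from either group therefore cannot be told apart from how its tables were made. At an unadjusted p under 0.05 limma held 0 of the 10 in each comparison, beside 2885, 330 and 4545 of all genes in the same order. The exact Wilcoxon rank-sum test, adjusted over the same genes, also gave 0 in each. At an unadjusted p under 0.05 it gave 2 of the 10 in Low against Control (Aldh1l1 and Aldoc), beside 2726 of 15644 genes. It gave 1, Slc1a2, in each of the other comparisons, beside 887 genes in High against Control and 5213 in Low against High. The median log2 change of the 10 genes was 0.0014 in Low against Control, where that of all genes was 0.062. It was -0.047 in High against Control (all genes -0.031) and 0.088 in Low against High (all genes 0.091). With libraries 56 to 62 as a covariate it was negative in both Low comparisons. Against Control it was then -0.14, with 0 of the 10 genes positive and 4 at an unadjusted p under 0.05. Of all genes 1478 were under that p, and 361 passed (2.31%). Against High it was -0.15, with 1 of 10 positive and 2 at an unadjusted p under 0.05. Of all genes 2174 were under that p, and 354 passed (2.26%). The medians of all genes stayed at 0.044 and 0.067. With these libraries left out the 10 genes had medians of -0.10 and -0.11, without scaling -0.033 and -0.13, and with median-of-ratios scaling -0.061 and -0.012, so the sign of the median in Low depends on the processing. These values are differences on the log2 scale, and all 3 comparisons share samples. Groups without any overlap were found for 0 of the 10 genes in each comparison, beside 1.53% of all genes in Low against Control, 0.00639% in High against Control and 2.26% in Low against High.

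**Figure D2:**
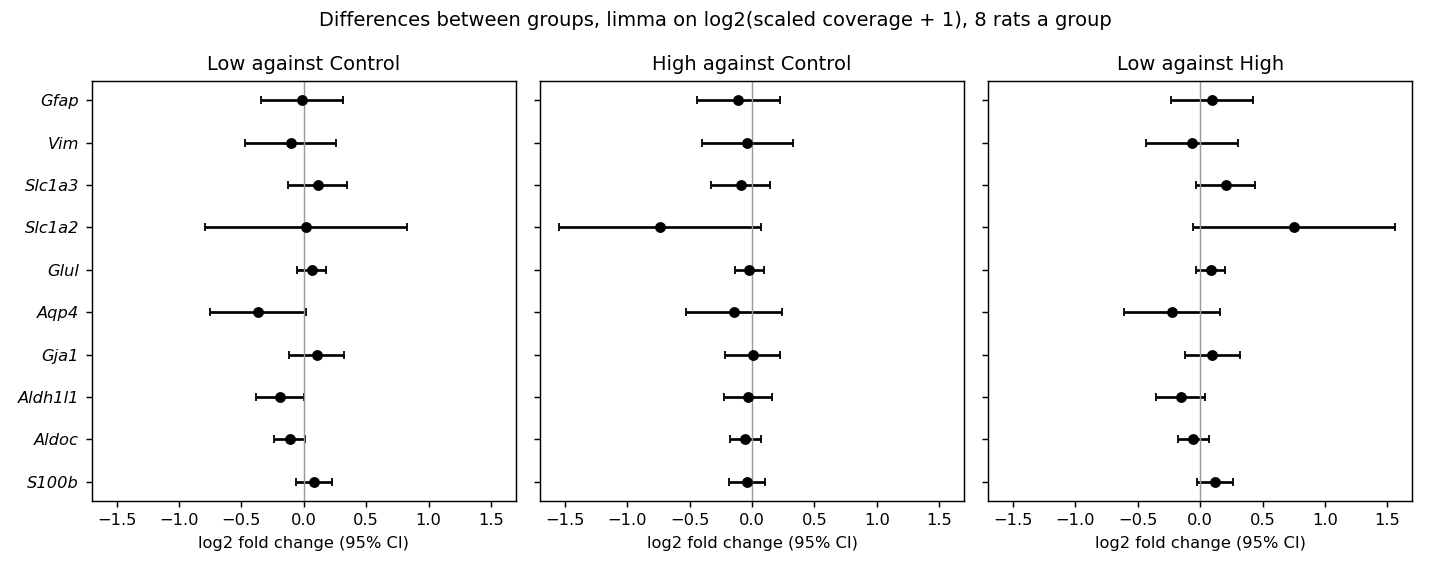
The log2 fold change of each astrocyte gene (dots) with its 95% confidence interval (bars) in the 3 comparisons, from limma with 8 rats a group. All intervals include 0, and the interval of Slc1a2 is the widest of the 10 in each comparison.

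The filament genes come first. Gfap encodes the main intermediate filament of astrocytes and, in the tables' positions, lies on the minus strand of chromosome 10 at 90990762 to 90999506. In Control it ranged from 162.1 to 315.7 (median 215.3, mean 224.9 ± 60.4, SD, n = 8), in Low from 173.7 to 287.4 (median 206.8, mean 218.5 ± 38.2, SD, n = 8) and in High from 133.0 to 288.6 (median 210.3, mean 207.8 ± 50.6, SD, n = 8). The 3 groups overlapped over most of their range, and the rat with the highest value was a Control (56). The log2 change was -0.015 (95% interval -0.34 to 0.31, adjusted p = 0.971) in Low against Control and -0.11 (-0.44 to 0.22, adjusted p = 0.999) in High against Control. Vim, the filament vimentin, is made by astrocytes and also by cells of vessels and meninges, and lies on the plus strand of chromosome 17 at 80882666 to 80891212. It ranged from 77.0 to 162.7 for Control (median 89.7), from 62.2 to 128.3 for Low (median 94.7) and from 60.3 to 136.5 for High (median 103.9). Its groups overlapped too, with log2 changes of -0.11 (adjusted p = 0.786) in Low and -0.038 (adjusted p = 0.999) in High against Control. The meninges markers stood beside it. Their sum was highest among Control rats in rat 56 (177.2) and lowest among High rats in rat 72 (35.7), the rats with the highest and the lowest Vim. All 5 meninges markers had negative log2 changes in Low against Control (median -0.57, 0 of 5 past the threshold), and their part in the Vim values was not tested.

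The genes of the glutamate cycle were next. Slc1a3 encodes GLAST and lies on chromosome 2 at 57860834 to 57935363 on the minus strand. It ranged from 247.6 to 444.0 for Control (median 345.7), from 286.7 to 454.2 for Low (median 382.5) and from 254.6 to 418.5 for High (median 316.2). The groups overlapped, and the lowest Control and the lowest Low values were those of rats 49 and 57. The log2 change was 0.11 (adjusted p = 0.635) in Low and -0.092 (adjusted p = 0.999) in High against Control, and 0.20 (adjusted p = 0.240) in Low against High. Glul, whose product makes glutamine from glutamate, was the steadiest of this set. It is placed on the plus strand of chromosome 13 at 71331052 to 71340229. Its scaled coverage ranged from 1054 to 1401 for Control, from 1225 to 1444 for Low and from 1138 to 1365 for High. Its 95% intervals were the narrowest of the 10 genes, from -0.054 to 0.18 for Low against Control and from -0.14 to 0.096 for High against Control on the log2 scale.

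Slc1a2 encodes GLT-1, the transporter that carries most glutamate uptake in the cortex, and its values varied the most. In Control its scaled coverage was 65.0 in rat 49 and 349.5 to 512.2 in the other 7 rats (median of all 8 432.8). In Low it was 70.2 in rat 57 and 339.1 to 541.0 in the other 7 (median of all 8 404.8). In High it ranged from 142.1 to 342.2 with a median of 211.1. Apart from rats 49 and 57, every Control rat lay above every High rat, and 1 High rat (70, 342.2) lay above the lowest Low rat (64, 339.1). With all 24 rats the log2 change was -0.74 (SE 0.39, adjusted p = 0.999) in High against Control, 0.018 (SE 0.39, adjusted p = 0.986) in Low against Control and 0.75 (SE 0.39, adjusted p = 0.204) in Low against High. Without rats 49 and 57, a choice made after these values were seen, the same test gave a log2 change of -1.08 (SE 0.15, adjusted p = 0.0033) in High against Control, where 390 of all genes passed (2.49%). It gave 1.08 (SE 0.15, adjusted p = 2.4e-05) in Low against High, where 4507 passed (28.8%), and 0.0043 (SE 0.16, adjusted p = 0.994) in Low against Control, where 672 passed (4.3%). Without rat 49 the High and Control values did not overlap, which held for 44 of all genes tested (0.281%). Without rat 57 the Low values of 0 of the 10 genes were clear of High (3.82% of all genes) or, without both rats, of Control (1.99%). Leaving out rat 57 alone also took Slc1a2 past the threshold in Low against High, and leaving out rat 49 alone did not do so in High against Control (log2 change -1.08, adjusted p = 0.372 by limma). Its log2 change in High against Control was negative under all 40 alternatives run, from -1.08 to -0.14.

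Rats 49 and 57 were low in many other genes. In Control 49 Slc1a2 was at 0.140 of the median of the other Control rats, and 139 of 15644 genes (0.889%) were at that share or under it. In Low 57 it was at 0.172, which 320 genes (2.05%) reached. Of the 10 astrocyte genes, 7 were lower in Control 49 than in any other Control rat, beside 7693 of all genes tested, and 4 were lower in Low 57 than in any other Low rat, beside 5268 of all genes. Astrocyte genes were therefore not the only ones low in these libraries.

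The row for Slc1a2 covers only a stretch of the locus. The tables place it at 92640752 to 92665644 on the plus strand of chromosome 3, a span of 24893 bases, while RefSeq gives the gene a span of 130337 bases on another build. The loci assembled by StringTie from the reads, which are listed in Control and High tables only, extend on both sides. In 8 tables an assembled locus held the whole row and reached on to 92674710 to 92675030. Its scaled coverage was 642.4, 715.5 and 650.4 in Control 51, 52 and 55, and 909.7, 542.2, 533.4, 576.6 and 883.0 in High 65, 68, 69, 70 and 72. On this wider locus the High rats lay on both sides of the Control rats. In 3 further tables the stretch past the 3′ end was listed as a locus of its own, from 92668368 on. It had 689.8 in Control 49, 1342 in Control 56 (listed there on the minus strand) and 956.9 in High 67, while the gene row had 65.0, 464.4 and 199.6. The stretch had 10.6 times the coverage of the row in Control 49, 2.89 times in Control 56 and 4.79 times in High 67. In Control 50 and 53 a locus there on the minus strand is listed at 0.963 and 0.656, although its FPKM is 378.5 and 382.5. Far upstream of the row, a locus starting between 92517610 and 92518132 had 67.3 to 107.3 for Control 50, 51, 52, 54 and 56 (in rat 56 on the minus strand) and 24.9 to 54.0 in 7 High rats. Loci starting at 92517607 in Control 49, 92517628 in Control 53 and 92517637 in Control 55 had 5.93, 4.68 and 4.67. In High 67 the locus listed nearest to this region was on the minus strand and ended before it, at 92516643 to 92517215, with 1.32. In Control 55 a single assembled locus ran from 92518126 to 92674738. The coverage of these loci beside that of the row differed from rat to rat. In Control 49, 54 and 56 and High 66 and 71 a same-strand locus had the very coverage of the row. Row and loci can thus hold the same reads. The part of this in the difference between High and Control was not tested. The FPKM column also divides the rats in another way. Without rat 49 the FPKM of Slc1a2 was 116.0 to 340.9 for Control and 63.9 to 261.8 for High, so the groups overlapped, and without rats 49 and 57 the log2 change was -0.67 (SE 0.33, adjusted p = 0.373).

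**Figure D3:**
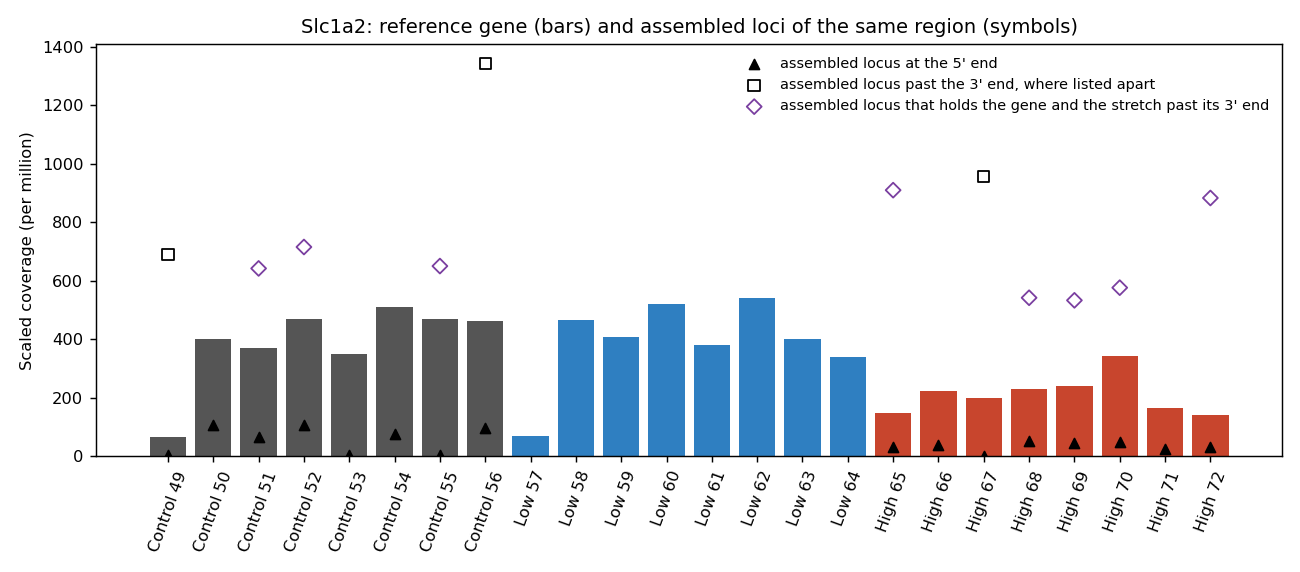
Scaled coverage of Slc1a2 in each of the 24 rats: bars are the reference row, triangles the assembled locus upstream (in High 67 a minus-strand locus just before that region), squares the locus past the 3′ end where it is listed apart, and diamonds an assembled locus that joins the row with that stretch. Low tables list no assembled loci; the bars are low in Control 49 (65.0) and Low 57 (70.2) and 142.1 to 342.2 for High, whereas diamonds are 533.4 to 909.7 for High and 642.4 to 715.5 for Control.

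The genes of water and coupling followed. Aqp4 encodes aquaporin-4 (chromosome 18, 6765945 to 6782996, minus strand). Its scaled coverage was 93.5 to 206.3 for Control (median 151.7, mean 158.0 ± 38.8, SD, n = 8), 76.0 to 196.4 for Low (median 111.1, mean 124.4 ± 41.3, SD, n = 8) and 95.4 to 188.7 for High (median 139.5, mean 142.4 ± 32.8, SD, n = 8). The groups overlapped. The log2 change in Low against Control was -0.37 (95% interval -0.75 to 0.017, adjusted p = 0.294), the largest of the 10 genes in that comparison, and -0.64 (adjusted p = 0.229) with libraries 56 to 62 as a covariate. In High against Control it was -0.14 (adjusted p = 0.999). Gja1 encodes connexin 43, the main gap junction protein of astrocytes (chromosome 20, 37876650 to 37889089, plus strand). It ranged from 195.4 to 317.1 for Control, from 216.2 to 316.1 for Low and from 197.0 to 350.5 for High, and its log2 changes were 0.10 (adjusted p = 0.635) in Low and 0.0065 (adjusted p = 0.999) in High against Control.

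The enzymes and S100b showed small differences. Aldh1l1 (chromosome 4, 123516788 to 123557501, minus strand) ranged from 6.01 to 9.23 for Control (median 7.80), from 5.12 to 7.97 for Low (median 6.82) and from 6.10 to 9.06 for High (median 7.42). On another build its RefSeq promoter lies on the plus strand of chromosome 4 (124616970 to 124617269). What this difference in strand means for the row was not tested. The Low median lay below every Control value except that of rat 49 (the other 7 were 7.24 to 9.23), although the groups overlapped, and the log2 change in Low against Control was -0.19 (95% interval -0.38 to 0.0026, adjusted p = 0.278). Another scaling or another column of the tables moved this gene past the threshold, in opposite directions, and these values stand in the closing section. Aldoc (chromosome 10, 65586504 to 65590126, plus strand) ranged from 550.3 to 642.7 for Control (median 561.3), from 504.2 to 638.3 for Low (median 513.0) and from 477.6 to 620.9 for High (median 566.5). In Low it was 638.3 in rat 57 and 504.2 to 562.0 in the other 7 rats, and the log2 change in Low against Control was -0.11 (SE 0.060, adjusted p = 0.325). S100b (chromosome 20, 13130636 to 13142856, minus strand) ranged from 1164 to 1534 for Control, from 1221 to 1505 for Low and from 1043 to 1411 for High. The groups overlapped, with log2 changes of 0.080 (adjusted p = 0.574) in Low and -0.039 (adjusted p = 0.999) in High against Control.

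Variation among Control rats was measured by the median absolute deviation as a share of the median. It was smallest for Aldoc (0.017), Glul (0.027) and S100b (0.041) and largest for Gfap (0.22) and Aqp4 (0.19). Slc1a2 stood at 0.12, since this measure gives little weight to a single low rat. The median over the 10 genes was 0.083, and over all genes tested 0.090. Aldoc varied less than all but 0.524% of the genes tested, and Gfap more than 89.8% of them.

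Within groups, most of the astrocyte genes rose and fell together from rat to rat. Each gene was taken as its deviation from the group mean on the log2 scale, and Pearson's r was computed over 24 rats for all 45 pairs, with 100000 permutations within groups, two-sided, and Benjamini-Hochberg adjustment over the 45 pairs. Of these, 32 pairs passed an adjusted p under 0.05, and 31 of the 32 were positive. By Spearman's rho 29 passed. In 8 of the 32 pairs the size of r was under 0.4 without the 2 rats farthest from the median of the first gene. The mean r was 0.51 over the 45 pairs and 0.17 over all pairs of genes tested, a description in which every pair shares the same libraries. Without rats 49 and 57, 29 pairs passed, of which 26 were among the 32. With median-of-ratios scaling, which divides by the typical gene rather than by the sum, 18 pairs passed.

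The highest correlation joined Slc1a3 and Gja1, with r = 0.90 (p = 1e-05, the smallest the permutations can give, adjusted p = 0.00015) and rho = 0.91 (p = 1e-05, adjusted p = 0.00011). It was 0.92 within Control, 0.89 within Low and 0.88 within High, and 0.89 without the 2 rats farthest from the median of Slc1a3. Slc1a3 also moved with Glul (r = 0.83, p = 3e-05, adjusted p = 0.00017; rho = 0.81, p = 2e-05, adjusted p = 0.00011; 0.77 without the 2 farthest rats), its partner in the glutamate cycle. Among these genes Gfap was closest to Aqp4 (r = 0.79, p = 2e-05, adjusted p = 0.00017; rho = 0.83, p = 2e-05, adjusted p = 0.00011; 0.78 without the 2 farthest rats). Vim was closest to Gfap (r = 0.76, p = 9e-05, adjusted p = 0.00034; rho = 0.73, p = 0.0002, adjusted p = 0.00082; 0.69 without the 2 farthest rats). Aldoc had low correlations with this block. It moved with S100b (r = 0.68, p = 0.00078, adjusted p = 0.0022; rho = 0.62, p = 0.0023, adjusted p = 0.0058; 0.60 without the 2 farthest rats), while its r with Gfap, Vim, Slc1a3, Glul, Aqp4, Gja1 and Aldh1l1 was -0.048 to 0.32 and did not pass. Without rats 49 and 57, its r with Slc1a3 was 0.55 (adjusted p = 0.0313) and with Glul 0.57 (adjusted p = 0.0228). The 1 negative pair that passed, Slc1a2 with Aldoc (r = -0.47, p = 0.024, adjusted p = 0.033), rested on rats 49 and 57. Without them r was -0.070 (adjusted p = 0.828), and rho over all rats was -0.25 (p = 0.236, adjusted p = 0.287). The other 4 pairs of Slc1a2 that passed were also lost without these rats. Its r with Slc1a3 was 0.59 with these rats and 0.21 without, with Glul 0.59 and 0.20, with Gja1 0.48 and 0.30, and with Aldh1l1 0.68 and 0.44 (adjusted p = 0.119 without them, the lowest of these).

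**Figure D4:**
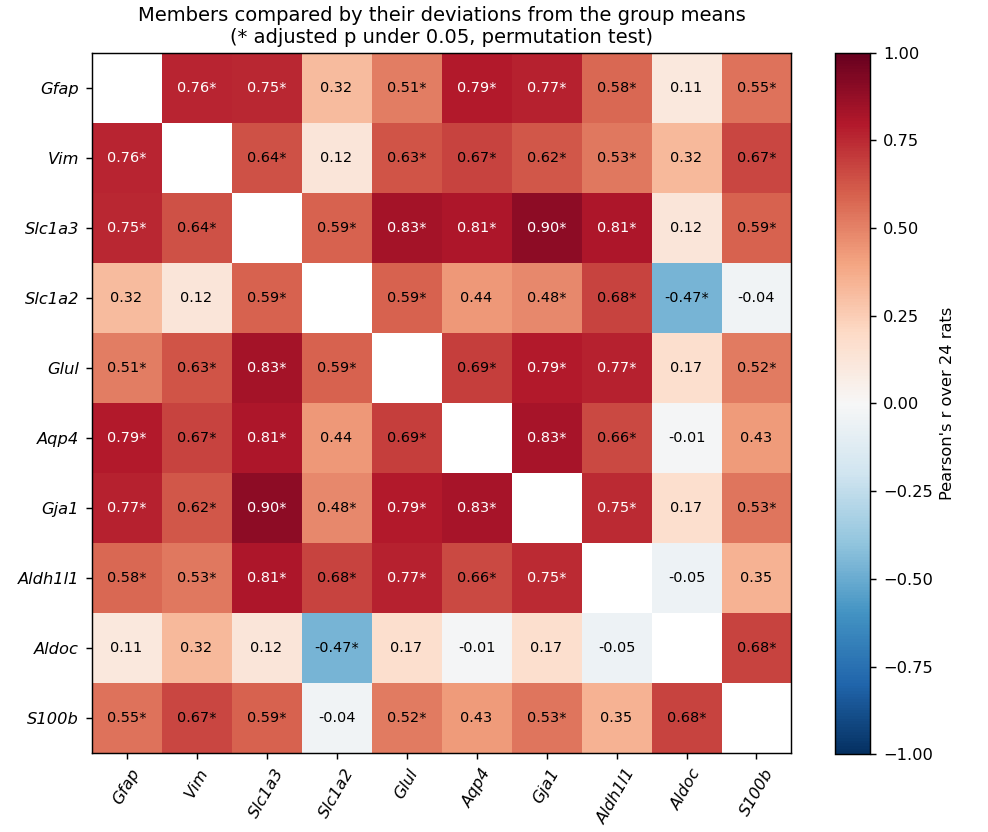
Pearson's r between the astrocyte genes over 24 rats, after the group means were removed, with the value in each square and an asterisk where the adjusted p is under 0.05 (100000 permutations, 45 pairs). Slc1a3 with Gja1 has the highest value (0.90), and the rows of Slc1a2 and Aldoc hold the lowest.

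For the pair that moved together most closely and for the most variable gene, the RefSeq promoters are shown, from 250 bases before to 50 bases after the first listed start. All 10 genes had an entry in this table of 27457 genes, on build GRCr8, which is not the build of the tables' positions. The sequence of Gja1 is chr20:36302314-36302613, plus strand, that of Slc1a3 chr2:59557759-59558058, minus strand, and that of Slc1a2 chr3:109459859-109460158, plus strand. Capitals mark letters that match one of 5 motifs on either strand.
Gja1: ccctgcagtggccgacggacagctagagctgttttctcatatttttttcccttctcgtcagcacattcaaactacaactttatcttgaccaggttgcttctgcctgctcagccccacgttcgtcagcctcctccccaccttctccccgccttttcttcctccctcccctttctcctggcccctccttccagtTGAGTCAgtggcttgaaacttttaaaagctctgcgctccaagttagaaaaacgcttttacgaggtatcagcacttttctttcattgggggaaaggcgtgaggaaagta
Slc1a3: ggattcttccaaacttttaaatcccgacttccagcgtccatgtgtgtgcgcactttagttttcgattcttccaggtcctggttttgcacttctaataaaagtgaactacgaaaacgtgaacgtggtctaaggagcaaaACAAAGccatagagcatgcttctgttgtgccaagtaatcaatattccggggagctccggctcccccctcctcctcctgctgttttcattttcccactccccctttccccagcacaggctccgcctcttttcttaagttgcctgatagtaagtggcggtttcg
Slc1a2: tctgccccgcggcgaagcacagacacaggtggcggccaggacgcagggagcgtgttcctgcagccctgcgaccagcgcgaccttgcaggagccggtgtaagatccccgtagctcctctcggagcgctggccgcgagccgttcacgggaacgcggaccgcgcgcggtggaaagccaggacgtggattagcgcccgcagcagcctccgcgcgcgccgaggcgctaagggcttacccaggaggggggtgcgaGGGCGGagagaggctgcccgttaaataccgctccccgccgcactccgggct
Gja1 held 1 match to the AP-1 motif TGANTCA, which is found in 7.33% of all promoters of this length. Slc1a3 held 1 match to the SOX motif ACAAAG, found in 18.3% of them. The single match of Slc1a2 was to the Sp1 motif GGGCGG, found in 34.9%. Among the other 7 genes, Vim, Aqp4, Aldh1l1, Glul and Aldoc also held the Sp1 letters. Only Vim of the 10 held the TATA box letters TATAAA, found in 14.3% of all promoters. Gfap and S100b held no match to the 5 motifs. None of the 10 held the STAT letters, TTCNNNGAA, found in 8.68% of all. Slc1a3 and Gja1 thus shared none of these letters in this window.

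The genes most like each astrocyte gene over the 24 rats, by r of the same deviations among 15644 genes, are given as a description with no test. Plpp3, a lipid phosphatase of astrocytes, was the closest gene of all to Gja1 (r = 0.94) and to Slc1a3 (r = 0.92) and the next closest to Aqp4 (r = 0.89). Gja1 was followed by Abcb6 and Ctnnal1 (r = 0.90 each), Slc1a3 by Pdgfra, a receptor of oligodendrocyte precursors (r = 0.92), and Aldh6a1 (r = 0.91), and Aqp4 was led by Rin3 (r = 0.90) with Atat1 after Plpp3 (r = 0.89). The nearest genes to Gfap were Cd44, a surface receptor of reactive astrocytes and other cells (r = 0.91), Sema4g (r = 0.90) and Gnai2 (r = 0.88). Those nearest to Vim were Olfml3, Bgn and Cavin1 (r = 0.94 each), of which biglycan (Bgn) is a matrix protein of vessels and meninges and Cavin1 a protein of endothelial and smooth muscle caveolae. Glul was closest to Olfml1 and Dhtkd1 (r = 0.90 each) and Evc (r = 0.89), Aldh1l1 to Cdc42bpg (r = 0.90), Gabrg1 and Enah (r = 0.89 each), S100b to Ndp (r = 0.83), Rbm25l1 (r = 0.82) and Pnp (r = 0.80), and Aldoc to Gcsh, part of the glycine cleavage system (r = 0.86), Bloc1s5 (r = 0.84) and Cmbl (r = 0.80). Slc1a2 was closest to Cbl, AABR07019085.1 and Uhmk1 (r = 0.98 each). Those 3 genes were low in rats 49 and 57 as well. Cbl was 1.33 in Control 49 and 1.35 in Low 57, against 8.43 to 13.0 in the other Control and 10.2 to 15.0 in the other Low rats. The 113 other genes of the astrocyte lists used here made up 0.722% of the genes compared. Among the 100 genes closest to a member, 9 were in these lists for Slc1a3 and for Gja1, 2 to 6 for the other members and 0 for Slc1a2, which is near the share over all genes. The median span of the 100 genes closest to Slc1a2 was 100678 bases, against 17185 bases over all genes tested.

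Wider lists of astrocyte genes were written from general knowledge to cover transport and coupling, metabolism, receptors and secreted factors, transcription factors and reactive astrocytes. In Low against Control 1 of 20 metabolism genes rose, and 0 of 20 transport, 0 of 25 receptor, 0 of 16 transcription factor and 0 of 23 reactive genes passed in either direction, beside 6.11% of all genes tested. The gene that rose was Pla2g7, a lipase that cleaves platelet-activating factor, at 33.8 ± 2.33 in Low and 26.5 ± 3.36 in Control (SD, n = 8), a log2 change of 0.35 (SE 0.085, adjusted p = 0.0138 by limma). Its call was lost with libraries 56 to 62 as a covariate (adjusted p = 0.0958 by limma) and with those libraries left out (adjusted p = 0.491). Leaving them out keeps Low rats 63 and 64 alone, so a lost call there says little. That holds for the calls in Low against High below as well. The change of Pla2g7 was positive under all 40 alternatives run. In High against Control 0 genes of these lists passed. In Low against High 8 rose and 0 fell, namely 1 transport, 1 metabolism, 4 receptor, 1 transcription factor and 1 reactive gene. Over all 15644 genes tested 829 rose and 999 fell (11.7% in either direction). All 8 calls were lost with libraries 56 to 62 as a covariate, where their log2 changes were 0.19 to 0.95 and their adjusted p 0.0885 to 0.458, and with those libraries left out, where 0 genes of these lists passed. With the covariate 1 transcription factor gene fell instead, beside 323 of 15644 genes. It was Zbtb20 (log2 change -0.79, adjusted p = 0.0496 by limma, and -0.30, adjusted p = 0.267, in the whole set), named after its values were seen. The metabolism gene was again Pla2g7 (log2 change 0.37, SE 0.085, adjusted p = 0.0049 by limma).

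The 3 with the largest increases in Low against High were Ptgs2, Grm3 and Nfib. Ptgs2, the inducible cyclooxygenase, stands in the reactive list but is also made by cortical neurons. It was 22.9 ± 6.27 in Low and 13.7 ± 4.97 in High (SD, n = 8), with a log2 change of 0.74 (SE 0.22, adjusted p = 0.0313 by limma). Grm3, a metabotropic glutamate receptor of astrocytes and neurons, was 36.0 ± 7.16 in Low and 25.5 ± 4.63 in High (SD, n = 8), with a change of 0.48 (SE 0.13, adjusted p = 0.0179 by limma). Nfib, a nuclear factor of astrocytes and of neurons, was 31.2 ± 5.97 in Low and 22.9 ± 4.57 in High (SD, n = 8), with a change of 0.43 (SE 0.13, adjusted p = 0.0295 by limma). The call of Ptgs2 was lost without any 1 of the Low rats 59, 62, 63 and 64 and the High rats 65, 66 and 67, with an adjusted p of up to 0.0669. That of Nfib was lost without any 1 of the Low rats 58, 59, 62 and 63 and the High rats 65, 67 and 72, with an adjusted p of up to 0.0712. That of Grm3 was kept without each single rat but, like the others, lost with libraries 56 to 62 as a covariate (log2 change 0.45, adjusted p = 0.289) or left out (0.50, adjusted p = 0.367). With these libraries left out, Low 63 and 64 alone remained in that group. Named because they complete the 8, and so after their values were seen, the others were Slco1c1, a thyroid hormone transporter (log2 change 0.30), Chrdl1, a secreted BMP antagonist (0.35), F3, tissue factor (0.31), and Sparcl1, a secreted matrix protein (0.23).

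The counts over the wider lists moved with the processing. Without rats 49 and 57 the lists held 4, 2, 9, 4 and 2 genes that rose in Low against High, in the order above. Of all 15644 genes 3342 rose there. With libraries 56 to 62 as a covariate they held 0, 0, 0, 0 and 0, beside 31 of all genes. With median-of-ratios scaling they held 0, 1, 1, 1 and 0, beside 356 of all genes that rose. With that scaling 1 reactive gene fell, beside 1295 of all genes. It was Synm (log2 change -0.38, adjusted p = 0.0383 by limma), an intermediate filament protein. Without rats 49 and 57, 1 transport gene fell in High against Control, beside 383 of all genes. It was Slc7a11 (log2 change -0.57, adjusted p = 0.0358 by limma), the cystine-glutamate exchanger. Both were named after their values were seen. The lists' medians in Low against High were 0.078, 0.088, 0.11, 0.19 and -0.037 on the log2 scale, with 0.091 over all genes. With median-of-ratios scaling they were -0.020, -0.0078, 0.0054, 0.090 and -0.11, with -0.00069 over all genes. Among reactive genes, 23 of the 32 listed in the tables reached the minimum level.

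**Figure D5:**
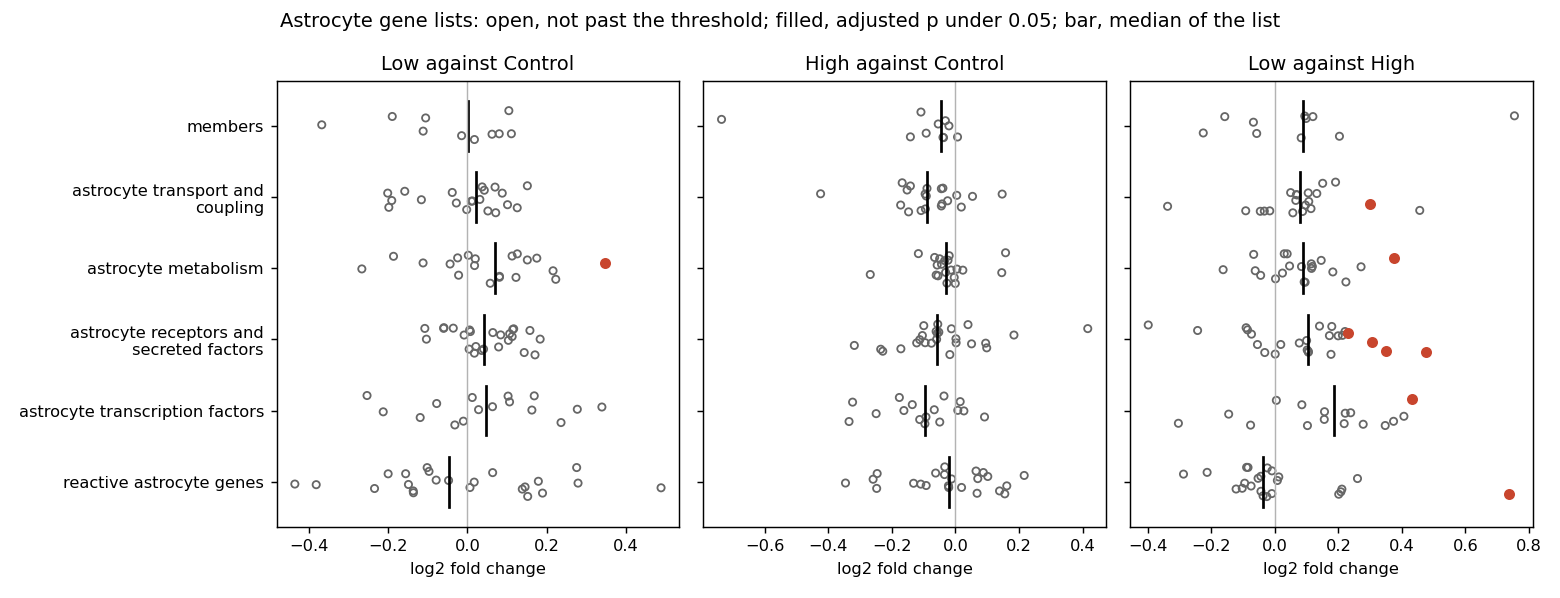
Log2 fold change of every tested gene of the 10 members and of 5 wider astrocyte lists in the 3 comparisons; open circles did not pass the threshold, filled circles did, and bars are list medians. There is 1 filled circle in Low against Control (Pla2g7, 0.35), 0 in High against Control and 8 in Low against High.

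Markers of other cell types were counted in the same fit. In Low against Control 1 of 7 tested pericyte and smooth muscle markers fell, Pdgfrb (log2 change -0.68, adjusted p = 0.00090 by limma), and it also fell in Low against High (-0.64, adjusted p = 0.0014). In Low against High 1 of 7 endothelial markers rose, Slco1a4 (0.33, adjusted p = 0.0235 by limma), a call lost with median-of-ratios scaling and with libraries 56 to 62 as a covariate. In this fit 0 markers of neurons, oligodendrocytes, oligodendrocyte precursors, microglia, choroid plexus, meninges, blood or striatum passed in any comparison. Other settings called some of them, named here after their values were seen. In Low against Control 2 of 5 meninges markers fell with median-of-ratios scaling (6.99% of all genes), Igf2 (log2 change -1.32, adjusted p = 0.0294) and Lum (-0.51, adjusted p = 0.0483), and 1 of 5 blood markers fell with the covariate, Hba-a2 (-0.96, adjusted p = 0.0375). In Low against High without rats 49 and 57, 3 of 13 neuron markers rose (Camk2a, Map2 and Syt1) and 1 oligodendrocyte marker (Ermn). Over all genes 3342 of 15644 rose there. With scaling without the mitochondrial genome 2 of the 13 rose (Neurod6 and Syt1), beside 1550 of 16241 genes. Without rats 49 and 57 Map2 fell in High against Control (-0.38, adjusted p = 0.0041 by limma), beside 383 of 15644 genes. The FPKM column called most markers of neurons and glia higher in Low, as it did nearly all genes. The summed level of the 10 astrocyte genes was 3701 to 5496 for Control (median 4576), 4310 to 5228 for Low (median 4611) and 3707 to 4818 for High (median 4312). The rats with the lowest sum of their own group were 49, 57 and 68. High 68 also had the lowest oligodendrocyte sum (2763) and the lowest striatum sum (241.0) of the High rats, and the part of tissue makeup in these sums was not tested.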

How the data were processed

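RNA-Seq libraries of 24 frontal cortex samples were prepared by the authors with a stranded poly(A) kit and, per the labels, processed with FastQC, Trimmomatic, TopHat2 and StringTie, with versions not given in the sources used here. The authors deposited 1 StringTie gene table per rat with coverage (mean read depth per base, a signal not scaled for depth), FPKM and TPM. The deposited TPM values of a Low table sum to 1000000. For Control and High the authors deposited a column of that name that is a score here, summing to 1.70 to 1.98 times 1000000 per table, since assembled loci alone make up 1000000. The tables hold no read counts, so counting error and intervals on it are not known. The processing notes name mRatBN7.2, but reference genes on chromosome 1 reach position 282724300, past the end of that build, and 7680 reference genes carry AABR07 clone names of an older one, so positions are those of the tables, with the build uncertain.

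Rows with reference identifiers were summed per gene and divided by their total. Genes with a mean scaled coverage of at least 1 (15644) were fitted with limma 3.58.1 in R 4.3.3, with a trend and robust variances, on log2 of the value plus 1; the 3 groups shared 1 fit. A fold change on that scale understates changes of low genes. The rest was run with scipy 1.17.1, numpy 2.4.6, pandas 2.3.3 and matplotlib 3.10.9 under Python 3.11.15. The tests were tested on simulated data. The 10 genes, the wider lists and the tests were chosen with earlier results of these data known. Named genes are the 10, the 3 largest increases and decreases past the threshold in the wider astrocyte lists per comparison (with Pla2g7 given in each comparison that called it), the 3 genes closest to each of the 10, and, named after their values were seen, the members of other counts of 5 or fewer. Alternatives were a pseudocount of 0.1, a minimum mean of 5 or none, values left unscaled, median-of-ratios scaling, scaling without the mitochondrial genome, the FPKM and TPM columns, assembled loci added, only the groups compared, Wilcoxon tests, libraries 56 to 62 as a covariate or left out, and each rat left out. Leaving out Control 49 and Low 57 together was chosen after seeing the data. The labels do not say more than that the samples are separate rats. Protein sequences were not used here.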

Additional observations from a re-analysis of the deposited data

Results flagged for a closer look

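Within each group of 8 rats, the highest and the lowest value were compared with the rest by their gap to the nearest other rat as a share of the group's range, against Dixon's 95% critical value. Over 45 sets, 30 of the 10 astrocyte genes and 15 of the summed wider lists, 5 values exceeded it, while chance gives about 1 in 20 sets, or 2.25. Slc1a2 was 65.0 in Control replicate 49, with the other Control rats at 349.5 to 512.2, and 70.2 in Low replicate 57, with the other Low rats at 339.1 to 541.0. Aldoc was 638.3 in Low replicate 57, above the other Low rats at 504.2 to 562.0. Control replicate 56 was high in Vim, at 162.7 against 77.0 to 114.1, and in S100b, at 1534 against 1164 to 1288. The same library lists 84 assembled loci on the strand opposite to the 10 genes, where the other 15 tables with assembled loci list 0 to 2 each. The part of the libraries in these values was not tested.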

How the results depend on the processing

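No paired analysis was possible because the groups share no replicate numbers (49 to 56, 57 to 64 and 65 to 72). Of the 10 genes, limma called 0 in each comparison, and this count was kept with a pseudocount of 0.1, without a filter, with a minimum mean of 5, without scaling, with scaling without the mitochondrial genome, with only the groups compared, by Wilcoxon tests, and with libraries 56 to 62 as a covariate or left out. With these libraries left out, Low holds rats 63 and 64 alone. Leaving out each rat gave 0 to 0 in Low against Control and in High against Control and 0 to 1 in Low against High, the 1 being Slc1a2 without Low 57. In Low against Control the count was 1 with median-of-ratios scaling, beside 1094 of 15644 genes. It was 8 in the FPKM column (12393 of 13816) and 1 in the TPM column (3952 of 15587). With assembled loci added, which only Control and High tables list, it was 2 (4964 of 17316). Without Control 49 and Low 57 it was 7 in the FPKM column (12499 of 13816). In Low against High these settings gave 1, 8, 2, 2 and 8, beside 1651, 12410, 3927, 5684 and 12573 of all genes. The 2 in the TPM column were Aldh1l1 and Slc1a3, both higher in Low. With assembled loci added, the 2 were Aldh1l1 (lower in Low) and Gja1 (higher in Low) in both comparisons. Without Control 49 and Low 57, High against Control gave 1 (390 of 15644 genes). It gave 1 also with median-of-ratios scaling (368) and 1 with the covariate (283). Low against High then gave 1, 3 and 1, beside 4507, 3381 and 1227 of all genes. The 3 with median-of-ratios scaling were Slc1a2, which was higher in Low, and Aldh1l1 and Aldoc, which were lower.

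The FPKM column put nearly all genes higher in Low, with a median log2 change of all genes of 0.53 against Control and 0.52 against High, and the 10 genes had medians of 0.59 and 0.57. Low tables list no assembled loci, and the cause was not tested. Against Control it turned the sign of Gfap (0.72), Vim (0.40), Aldh1l1 (1.20) and Aldoc (0.55), and against High that of Vim (0.39), Aldh1l1 (1.19) and Aldoc (0.58). It also turned that of Aqp4 in both, without passing the threshold (0.17, adjusted p = 0.335, and 0.26, adjusted p = 0.143), so that all 10 genes were positive. Without Control 49 and Low 57 its values were 0.70, 1.22 and 0.54 for Gfap, Aldh1l1 and Aldoc against Control and 1.23 and 0.53 for Aldh1l1 and Aldoc against High. The TPM column turned Aldh1l1 as well (0.96 and 0.95). Median-of-ratios scaling instead called Aldh1l1 lower in Low (-0.24, adjusted p = 0.0435, and -0.25, adjusted p = 0.0300, by limma). Adding assembled loci, which count reads of a gene again, gave -1.64 and -1.54. Only Control and High tables list such loci, so for this gene a fall in Low was built into that setting. No direction can be given for Aldh1l1, nor for Aldoc in Low against High, which was also called in both directions. Against the 32 pairs of genes that varied together, median-of-ratios scaling gave 18. The median variation in Control (0.083) was 0.065 to 0.10 without each rat. The jackknife SE of that median over the 8 rats was 0.033. The unscaled values put the median above the range without each rat but within that SE, and the FPKM column left it within both. In the other settings the count of pairs stayed within 1.5 times of 32. Without read counts, what depth limits is unknown.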
